A study of Mus musculus with 6 samples.

Results

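Orphan and metabolite receptors are G protein-coupled receptors that sense metabolites, lipids and protons, or whose natural ligand is not settled. The genes described here were chosen by name: those annotated with 1 symbol that is Gpr and a number, without Gpr15 and Gpr183, or that belongs to the Ffar, Hcar, P2ry, Lpar or Adora families. The rule found 83 of the 19938 genes measured, each with 1 probe set, and none of the Adora family, whose genes are not analysed here. No measured value entered the choice.

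CCR6+ group 3 innate lymphoid cells (ILC3s) were sorted from the lamina propria of the small intestine of C57BL/6 mice, whose age the labels do not give, and their RNA was measured on Affymetrix arrays. The control group holds 3 arrays from Tnfsf11fl/fl mice. The RANKL-deficient group holds 3 arrays from mice with the same floxed alleles and a Cre transgene. Tnfsf11 encodes the cytokine RANKL. The control labels name no Cre, so an effect of Cre and one of the deletion cannot be told apart. The labels do not say how many mice gave each sample, so the p-values rest on a spread among samples that may be technical.

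Metabolite receptors let a lymphocyte read its surroundings. FFAR2 and FFAR3 bind short-chain fatty acids made by gut bacteria, P2Y receptors bind nucleotides released by stressed cells, and LPA and lysophosphatidylserine receptors bind lysophospholipids. Proton-sensing receptors respond to acid in inflamed tissue. Most of these receptors signal through heterotrimeric G proteins to cAMP or calcium.

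The arrays had medians from 5.07 to 5.15 over all genes on the log2 scale. Control arrays 1 and 2 had the narrowest spreads (SD 1.86 and 1.93 over genes, against 1.99 to 2.01 on the other 4). Control array 1 stood apart most. Its mean correlation with the others was 0.960 (0.970 to 0.977 for the rest), 247 genes lay more than 1.5 below the median of the other arrays (11 to 75 for the rest), and 27 of the 83 receptor genes were highest on it. Control array 2 was the highest for another 24. The part of these arrays in the lower values described below was not tested, and some results are also given without them. The ILC3 genes Il7r (12.23 to 12.32), Kit (10.75 to 10.93), Il23r (10.40 to 10.89) and Ccr6 (8.59 to 9.80) were measured well above the olfactory reference described below on every array, and 0 of the list passed adjustment. Of the 12 measured ILC3 markers, 9 had higher values in RANKL-deficient cells (all genes: 39.5%). Without overlap 4 were higher (all genes: 5.28%): Cxcr5 (difference 0.85, adjusted p = 0.377), Cd4 (0.69, adjusted p = 0.523), Thy1 (0.21) and Il2ra (0.18). The summed level of all 12 ran from 14.29 to 14.40 in control and from 14.46 to 14.52 in RANKL-deficient cells (log2 of the sum). Its part in the results was not tested. Tnfsf11 itself measured 8.76, 8.41 and 8.25 on the control arrays and 8.36, 8.65 and 8.52 on the RANKL-deficient arrays. The groups overlapped, and the difference of 0.04 (95% confidence interval −0.37 to 0.44) turned sign after quantile normalization (−0.037) and cyclic loess (−0.052). Where the probes lie with respect to the floxed exons is not known here, so the genotype labels stay unchecked by this value.

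Because the files hold no detection call, each receptor gene was read against a reference made of 1015 olfactory receptor genes, which this tissue is not known to use. The reference was set at 4.84, the 95th percentile of the olfactory genes' mean log2 values. Intensities of different probe sets do not order transcripts by abundance, so the reference is a guide to which probe sets carry signal and no more. The mean of 34 of the 83 receptor genes lay above it. Of all 83, 30 lay above it on all 6 arrays, 42 on none and 11 on some. Their means ran from 2.46 to 10.39, with a median of 4.46, below the 5.12 of all genes.

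Across the whole set, no receptor gene passed the test after adjustment. The smallest adjusted p was 0.377 (limma, two-sided, over all genes), and 0 of 83 passed the threshold of 0.05, against 0.00502% of all genes. At an unadjusted p under 0.05, 2 receptor genes were higher in RANKL-deficient cells (2.41%, against 4.25% of all genes) and 5 were lower (6.02%, against 3.9%). Over all genes, 8.15% reached that p in either direction. The lower count was 9 without control array 3, 1 without RANKL-deficient array 2 and 0 without control array 2, while the higher count was 1 without RANKL-deficient array 2 or 3. In the same refits the lower share of all genes was 7.37% without control array 3 (receptor genes 10.8%), 2.54% without RANKL-deficient array 2 (1.2%) and 3.33% without control array 2. The higher share of all genes was 3.16% and 3.6% without RANKL-deficient array 2 and 3 (receptor genes 1.2% in each). Neither share lay far from that of all genes.

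Of the 83 differences, 29 lay above 0 (all genes: 39.5%) and 54 below (65.1%, against 60.5%). Their median was −0.07, against −0.05 for all genes, and it turned to 0.013 after quantile normalization and 0.023 after cyclic loess. Differences ran from −0.72 (Gpr18) to 0.89 (Gpr34), and 5 of 83 exceeded 0.5 in size (6.02%, against 9.06% of all genes). The standard errors had a median of 0.16 and ran up to 0.57, so a difference of the size seen for most of these genes was within the error.

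**Figure D1:**
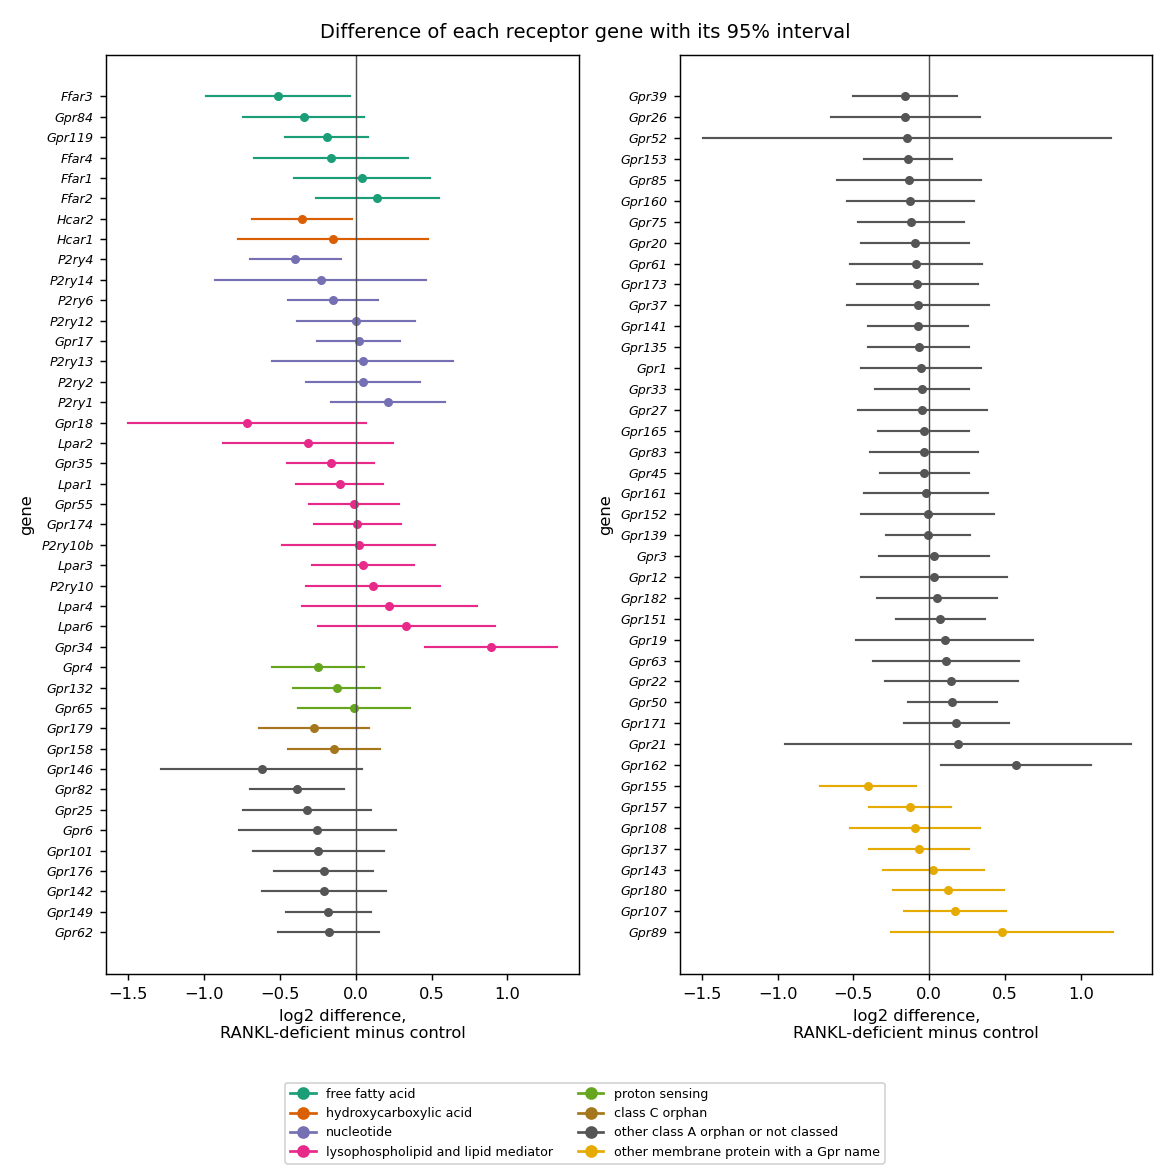
Log2 difference of each of the 83 receptor genes, RANKL-deficient minus control (points), with its 95% confidence interval from limma (lines), coloured by receptor class and sorted within class. Gpr34 has the highest value (0.89) and Gpr18 the lowest (−0.72); most intervals cross 0, and none passed adjustment over all genes.

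Of the 6 free fatty acid receptors, 4 had lower and 2 higher values in RANKL-deficient cells (median −0.18), and Ffar2 was the one with a mean above the reference. Ffar2, the receptor for acetate, propionate and butyrate that is known from ILC3s of the colon, measured 9.52, 9.97 and 9.61 on the control arrays and 9.94, 9.96 and 9.63 on the RANKL-deficient arrays. The groups overlapped throughout, and the difference of 0.14 had a 95% interval of −0.26 to 0.55 (adjusted p = 0.826). Ffar3, the other short-chain fatty acid receptor, measured 4.36, 5.01 and 4.48 in control and 4.26, 3.92 and 4.14 in RANKL-deficient cells. All 3 RANKL-deficient values lay below all 3 control values, by −0.51 on average (SE 0.20, adjusted p = 0.603), but control array 2 was the one value above the olfactory reference. Without that array the difference was −0.31. The long-chain receptors Ffar1 and Ffar4 lay below the reference on every array, with differences of 0.04 and −0.16. Gpr84, a receptor for medium-chain fatty acids, and Gpr119, which binds oleoylethanolamide, were also below it everywhere (differences −0.34 and −0.19). Without control arrays 1 and 2 the difference of Gpr84 was −0.13.

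Ffar2, Ffar3 and Ffar1 lie next to each other in the genome, so the sequences before the starts of the first pair are shown to set a well-measured receptor gene beside a neighbour near the reference. They are the 250 bases before the annotated start, on the gene's strand, from RefSeq (build GRCm38.p6). For Ffar2, which has 4 listed starts, the one farthest upstream was used. Of the 83 genes, 65 had a promoter in the table. Capitals mark AGGTCA, a half-site of nuclear receptors, read on both strands (TGACCT on the other), and TGACGTCA, the cAMP response element, which reads the same on both strands.
Ffar2, chr7:30823776-30824025, minus strand: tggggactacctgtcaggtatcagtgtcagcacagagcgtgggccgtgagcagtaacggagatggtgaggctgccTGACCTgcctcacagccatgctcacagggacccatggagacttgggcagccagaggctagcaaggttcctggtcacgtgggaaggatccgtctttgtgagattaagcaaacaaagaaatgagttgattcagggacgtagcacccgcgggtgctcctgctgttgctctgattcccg
Ffar3, chr7:30856179-30856428, minus strand: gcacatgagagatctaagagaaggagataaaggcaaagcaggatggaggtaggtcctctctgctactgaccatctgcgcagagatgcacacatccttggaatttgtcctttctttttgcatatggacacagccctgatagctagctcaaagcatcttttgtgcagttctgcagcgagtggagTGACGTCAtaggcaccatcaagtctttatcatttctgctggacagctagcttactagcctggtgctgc

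The Ffar2 window holds 1 AGGTCA match and 0 TGACGTCA matches, and the Ffar3 window 0 and 1. AGGTCA occurs in 14.02% of all 32851 promoter windows of this length and in 18 of the 93 windows of the receptor genes (19.35%). TGACGTCA occurs in 1.55% of all windows and in 2 of the 93. These matches describe letters only and say nothing of binding.

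Both hydroxycarboxylic acid receptors measured near or below the reference. Hcar2, the receptor for niacin and beta-hydroxybutyrate, measured 4.71, 4.77 and 4.52 in control and 4.42, 4.14 and 4.36 in RANKL-deficient cells. The groups did not overlap, with a difference of −0.36 (SE 0.14, adjusted p = 0.600). Hcar1, the lactate receptor, overlapped between groups, with a difference of −0.15 that turned to 0.31 without control arrays 1 and 2.

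Of the 8 nucleotide receptors, 5 had higher and 3 lower values (median 0.01), and 4 had means above the reference. P2ry1, an ADP receptor, measured 7.59, 7.40 and 7.65 in control and 7.94, 7.49 and 7.84 in RANKL-deficient cells. The groups overlapped (difference 0.21, SE 0.16). P2ry14, the receptor for UDP-glucose, measured 5.88, 5.65 and 6.09 in control. In the RANKL-deficient group its first array was high at 6.33, and the other arrays were low at 5.34 and 5.26. P2ry6, which binds UDP, stayed within 4.87 to 5.18 on all 6 arrays, close to the reference. The ADP receptor P2ry13 straddled the reference (4.53 to 5.38). P2ry12, an ADP receptor of platelets and microglia, and P2ry2, an ATP and UTP receptor, lay below it on every array. P2ry4, which binds UTP, had the smallest unadjusted p of the lower receptor genes. It measured 4.42, 4.55 and 4.32 in control and between 3.96 and 4.13 in RANKL-deficient cells, with no overlap (difference −0.40, SE 0.13, adjusted p = 0.541), and all 6 values lay below the reference. Gpr17, a relative of the P2Y receptors, was below it as well (difference 0.02).

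The 12 lysophospholipid and lipid receptors (7 higher, 5 lower, median 0.02) held both the highest and the lowest difference. Gpr34, a receptor for lysophosphatidylserine best known from microglia and other myeloid cells, measured 5.18, 4.72 and 5.24 in control and 5.82, 6.16 and 5.84 in RANKL-deficient cells. All RANKL-deficient values lay above all control values, and the means differed 1.86-fold (log2 0.89, SE 0.18, 95% interval 0.46 to 1.33). The difference did not pass adjustment (adjusted p = 0.377) and stayed between 0.73 and 0.99 when any 1 array was left out. The control mean of 5.05 lay close to the reference. In bulk RNA, a difference in the number of cells carrying a transcript and one in the amount per cell cannot be told apart.

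Since Gpr34 is known from myeloid cells, their markers are given beside it. Of 12 macrophage and monocyte markers measured, 7 had higher and 5 lower values in RANKL-deficient cells, with a median difference of 0.03, and 0 passed adjustment. Their summed level ran from 9.40 to 9.85 in control and from 9.24 to 9.80 in RANKL-deficient cells (log2 of the sum). The differences ran from −0.64 for Cd14 to 0.31 for Cx3cr1, a chemokine receptor shared with microglia. The complement gene C1qa had 0.29 and Csf1r, the receptor for macrophage colony-stimulating factor, 0.00. Adgre1, which encodes F4/80, had −0.54 and was the one marker of the list at an unadjusted p under 0.05 (all genes: 8.15% in either direction). Itgam and Mertk lay below the olfactory reference on every array and Adgre1 on all but 1. The part of these markers in the value of Gpr34 was not tested. The mast cell markers Cpa3, Mcpt1, Mcpt2, Fcer1a and Ms4a2 were below it on every array too.

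P2ry10, another lysophosphatidylserine receptor of lymphocytes, measured 8.51, 8.86 and 8.75 in control and 8.53, 8.81 and 9.13 in RANKL-deficient cells. Lpar6, a receptor for lysophosphatidic acid, measured 8.05, 8.72 and 8.34 in control and 8.30, 8.73 and 9.08 in RANKL-deficient cells. Both sets overlapped, with differences of 0.11 (SE 0.19) and 0.33 (SE 0.25). The other lysophosphatidic acid receptors were near or below the reference: Lpar1 ran from 4.88 to 5.13, Lpar2 from 4.12 to 5.10, and Lpar3 and Lpar4 stayed below it on every array. Gpr174 and P2ry10b, relatives of P2ry10, lay below it on every array, as did Gpr55, a receptor for lysophosphatidylinositol (difference −0.01). Gpr35, for which kynurenic acid was proposed as a ligand, measured 5.19, 5.22 and 5.11 in control and 4.89, 5.06 and 5.09 in RANKL-deficient cells.

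Gpr18, a lymphocyte receptor proposed to bind N-arachidonoyl glycine, had the lowest difference of the set. It measured 8.37, 9.01 and 8.06 in control and 7.92, 7.16 and 8.21 in RANKL-deficient cells. The groups overlapped, since RANKL-deficient array 3 lay above control array 3, while control array 2 was the highest and RANKL-deficient array 2 the lowest. The difference was −0.72 (SE 0.33, 95% interval −1.50 to 0.07, adjusted p = 0.623) and ran from −0.94 to −0.41 without 1 array. Without control arrays 1 and 2 together it was −0.30. Cd3g, a T cell receptor chain gene measured as a marker of T cells, was also lower in RANKL-deficient cells (difference −1.91, adjusted p = 0.408). Cd3e had −0.70 with overlapping groups, while Cd3d had 0.26. The part of these markers in the value of Gpr18 was not tested. Of the 9 measured T cell markers, 7 had lower and 2 higher values, and Cd8a, Cd8b1 and Cd28 lay below the reference on every array. Their summed level ran from 9.80 to 10.13 in control and from 9.96 to 10.24 in RANKL-deficient cells (log2 of the sum). Lat, which had the highest mean of the list (9.45), weighs most in that sum. It was higher in RANKL-deficient cells without overlap (difference 0.51).

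Of the 3 proton-sensing receptors, all with lower values (median −0.13), Gpr65 and Gpr132 were among the best measured. Gpr65, which raises cAMP in acid and is carried by many lymphocytes, measured 9.24, 9.73 and 9.54 in control and 9.43, 9.52 and 9.52 in RANKL-deficient cells. Its difference of −0.01 had a 95% interval of −0.38 to 0.36, and the sign turned to 0.04 after median centring. Gpr132, a relative that also responds to oxidized fatty acids, measured 9.95, 10.04 and 9.89 in control and 9.82, 9.94 and 9.75 in RANKL-deficient cells (difference −0.13, SE 0.12). Gpr4, a proton sensor of endothelial cells, lay below the reference on every array. Its groups did not overlap (difference −0.25, SE 0.13).

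Gpr171 had the highest mean of all 83 genes. It is a receptor of T cells for which the peptide BigLEN was proposed as a ligand. It measured 10.05, 10.41 and 10.46 in control and 10.46, 10.51 and 10.48 in RANKL-deficient cells. The groups did not overlap by a narrow margin, and control array 1 alone was low. The difference of 0.18 (SE 0.15) was 0.05 without that array.

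**Figure D2:**
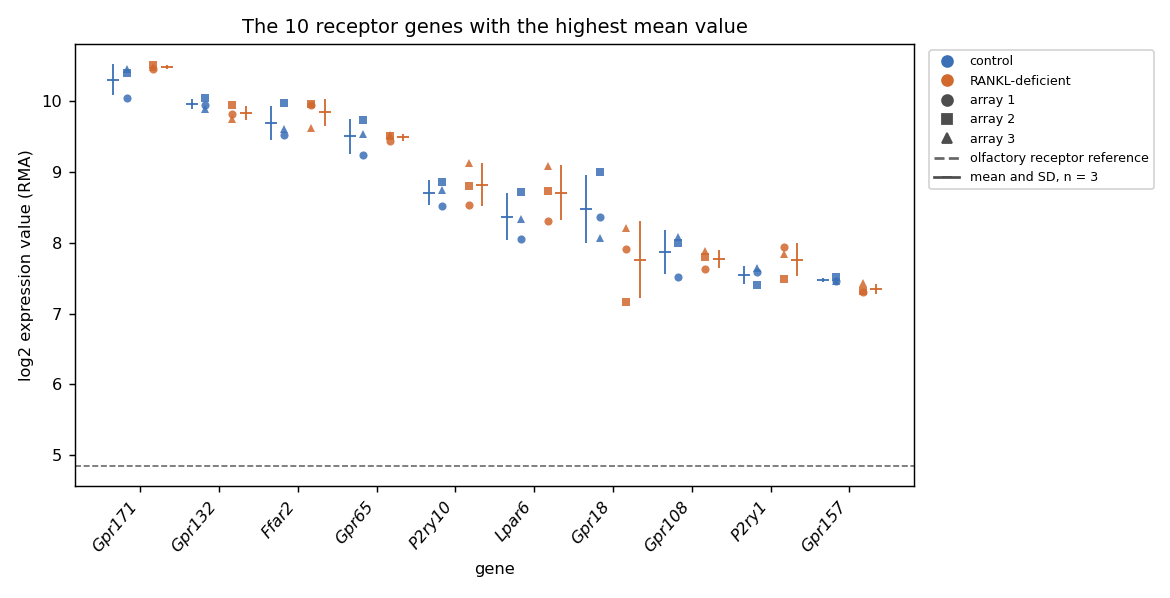
Log2 expression value on each array for the 10 receptor genes with the highest mean, control in blue and RANKL-deficient in orange, with marker shapes for the arrays of a group and bars for the mean and SD (n = 3). All 10 lie well above the olfactory receptor reference of 4.84 (dashed), and Gpr18 shows the widest scatter.

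Gpr162, an orphan receptor, was the other gene higher at an unadjusted p under 0.05. It measured 5.69, 5.12 and 5.78 in control and 5.87, 6.18 and 6.26 in RANKL-deficient cells, with no overlap (1.49-fold, log2 0.57, SE 0.21, adjusted p = 0.589). Control array 2 was the low one, and the difference was 0.37 without it. Gpr146, an orphan linked to cholesterol metabolism, measured 5.23, 6.09 and 5.96 in control and 4.72, 5.23 and 5.46 in RANKL-deficient cells (difference −0.62, SE 0.28, adjusted p = 0.618). Its groups overlapped because control array 1 was low: it lay level with RANKL-deficient array 2 and below RANKL-deficient array 3. Gpr25, an orphan receptor known from lymphocytes, had a difference of −0.32 (SE 0.18), and it ran from 5.62 to 6.40 over the arrays. Control array 1 was its highest value, and the difference was −0.17 without that array and −0.042 without control arrays 1 and 2. Gpr82, also an orphan, measured 2.58, 2.74 and 2.63 in control and 2.20, 2.17 and 2.43 in RANKL-deficient cells. These groups did not overlap, but every value lay far below the reference. Gpr50, a relative of the melatonin receptors, lay below it too, from 2.83 to 3.17.

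These belong to the 42 receptor genes classed as other orphans of class A or not classed, of which 11 had higher and 31 lower values (median −0.07, range −0.62 to 0.57) and 14 had means above the reference. The class C orphans Gpr158 and Gpr179, relatives of the metabotropic glutamate receptors, had differences of −0.14 and −0.28, with Gpr179 above the reference and Gpr158 below it on every array.

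Another 8 genes with a Gpr name were grouped apart as other membrane proteins, 4 with higher and 4 with lower values (median −0.02). This label does not settle whether each encodes a G protein-coupled receptor. Gpr89, which encodes a Golgi pH regulator, measured 6.20, 6.88 and 7.18 in control and 7.68, 7.23 and 6.78 in RANKL-deficient cells (difference 0.48, SE 0.31). Its difference was 0.06 without control arrays 1 and 2. Gpr155, which encodes a lysosomal cholesterol sensor, was lower without overlap (difference −0.40, SE 0.14, adjusted p = 0.563), and all its values lay below the reference. Gpr108, Gpr157 and Gpr107 were well measured, with differences of −0.09, −0.13 and 0.17.

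**Figure D3:**
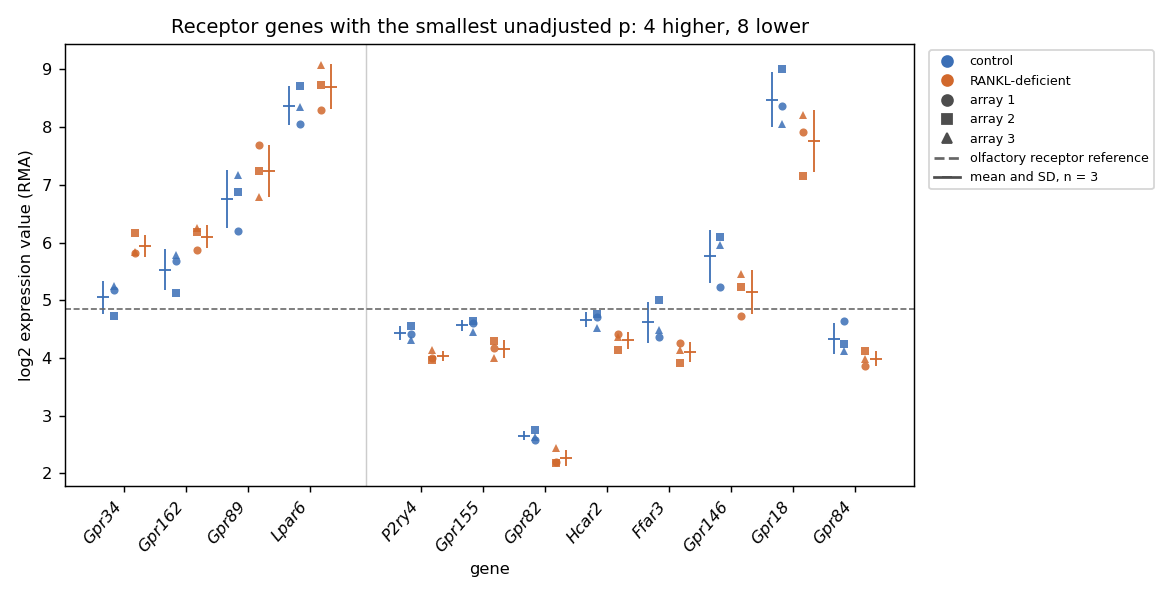
Log2 expression value on each array for the 4 receptor genes with the smallest unadjusted p in the higher direction (left) and the 8 in the lower direction (right), control in blue, RANKL-deficient in orange, with mean and SD (n = 3). Gpr34 and Gpr162 separate above the olfactory receptor reference of 4.84 (dashed), while P2ry4, Gpr155, Gpr82, Hcar2 and Ffar3 separate with group means below it.

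Counting arrays that do not overlap gave 3 receptor genes with all RANKL-deficient values above all control values (3.61%, against 5.28% of all genes) and 10 with all below (12%, against 9.08%). The higher ones were Gpr34, Gpr162 and Gpr171. Of the 10 lower ones, 8 had means that were not above the olfactory reference: Ffar3, Gpr119, Hcar2, P2ry4, Gpr4, Gpr82, Gpr149 and Gpr155. The remaining lower ones were Gpr35 and Gpr157, with differences of −0.16 and −0.13. Olfactory receptor genes themselves were lower without overlap in 12.4% and higher in 1.18%, with a median difference of −0.10. All 5 receptor genes lower at an unadjusted p under 0.05 had means below the reference as well. After cyclic loess the counts were 4 higher and 4 lower (4.82% each, against 6.59% and 6.46% of all genes). With fewer arrays, groups separate more easily: the higher count was 5 or 6 without control array 2 or any 1 RANKL-deficient array, and the lower count was 17 without control array 2 and 28 without control array 3. Of all genes, 14.7% and 23.7% were lower without overlap in these last refits, against 20.5% and 33.7% of the receptor genes. The higher share of all genes was between 8.27% and 8.76% where the receptor genes had 5 or 6 (6.02% or 7.23%).

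**Figure D4:**
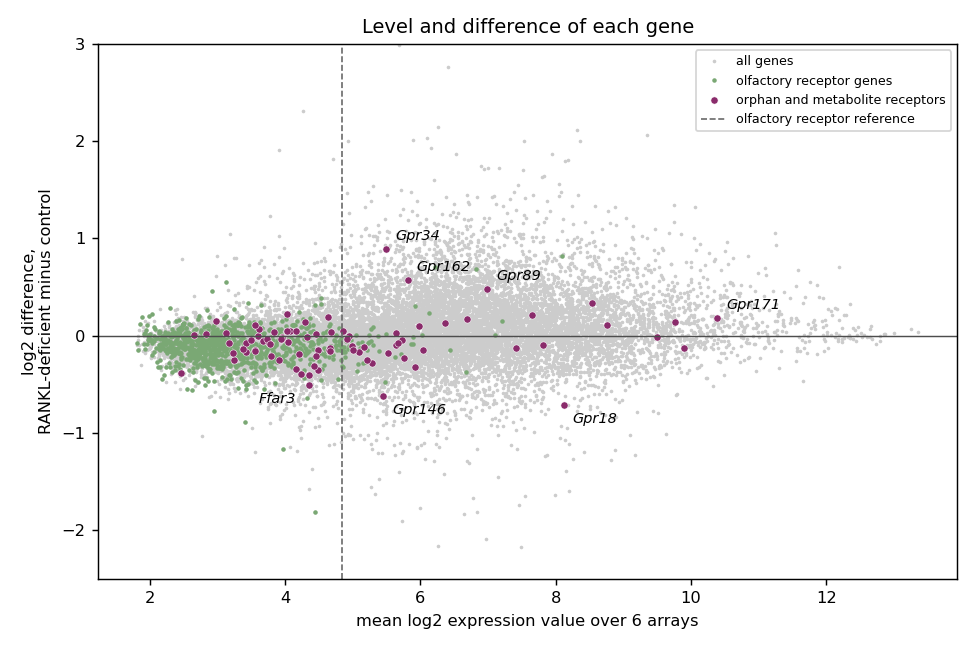
Mean log2 value over the 6 arrays (horizontal) against the log2 difference, RANKL-deficient minus control (vertical), for all genes (grey), olfactory receptor genes (green) and the 83 receptor genes (purple); 1 gene lies beyond the vertical axis. The purple points lie within the cloud of all genes, and the olfactory genes centre slightly below 0 (median −0.10).

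By the RefSeq table, 16 of the 83 lay in 6 groups of neighbours no more than 100 kb apart. In 3 of the groups 1 gene was far above the olfactory reference while at least 1 other was below it. These were Ffar2 beside Ffar3 and Ffar1, P2ry10 beside P2ry10b and Gpr174, and Gpr171 in a group with P2ry12. In that last group P2ry14 and P2ry13 had means above the reference (5.76 and 4.85). Gpr34 and its neighbour Gpr82 had opposite signs (0.89 and −0.38).

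In all, 15 receptor genes lay inside the span of 11 protein-coding host genes. Gpr34 and Gpr82 lie within Cask, a scaffold kinase gene, whose own difference was 0.07 (adjusted p = 0.908). Gpr171, P2ry12, P2ry13 and P2ry14 lie within Med12l, which had 0.06. Gpr18 lies within Ubac2, which had 0.33 against −0.72 for Gpr18, and Lpar6 within the tumour suppressor gene Rb1, which had 0.20 against 0.33. Gpr52 and Gpr21 lie within Rabgap1l and Rabgap1. They had the largest standard errors of the set (0.57 and 0.48), with values from 4.97 to 7.22 for Gpr52 and from 3.58 to 5.45 for Gpr21.

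**Figure D5:**
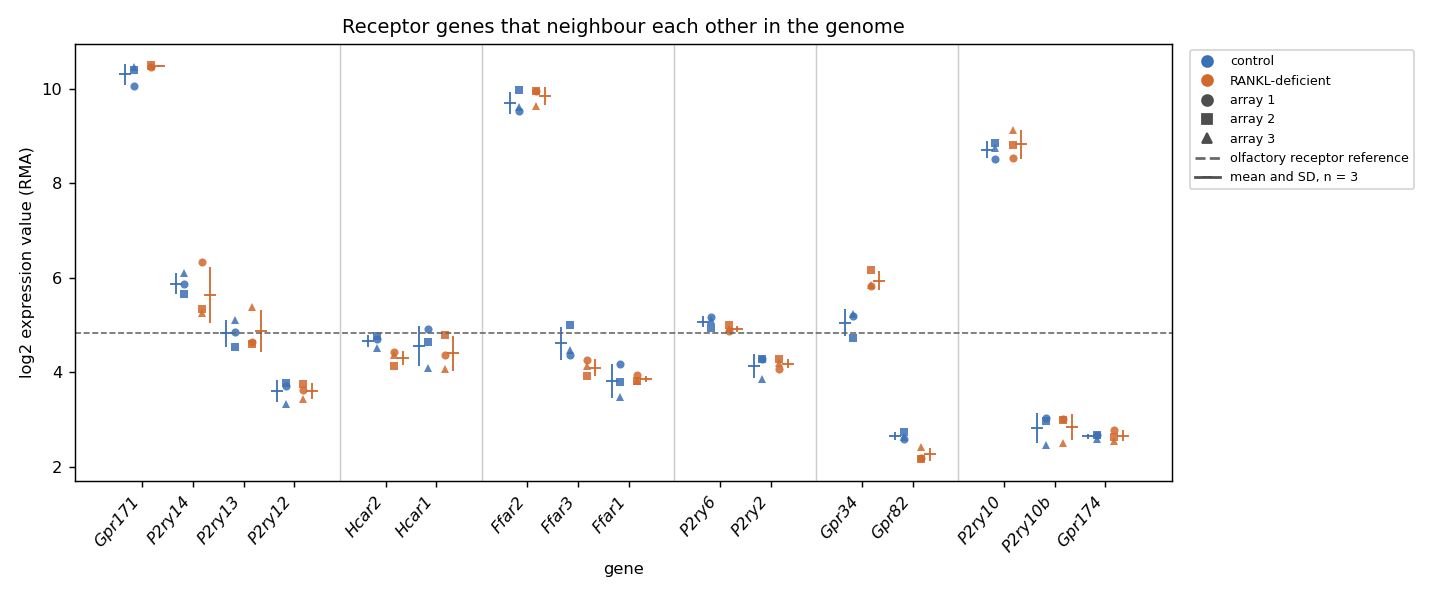
Log2 expression value on each array for the 16 receptor genes in 6 groups of genome neighbours (separated by grey lines), control in blue, RANKL-deficient in orange, with mean and SD (n = 3). Gpr171, Ffar2 and P2ry10 lie far above the olfactory receptor reference of 4.84 (dashed), in groups that also hold genes below it. In the fifth group Gpr34 is higher in RANKL-deficient cells.

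The machinery around the receptors was read from 8 lists with 132 genes, of which 120 were measured. None passed adjustment (smallest adjusted p = 0.377), 4 were higher at an unadjusted p under 0.05 (3.33%, against 4.25% of all genes) and 7 lower (5.83%, against 3.9%), with a median of −0.04.

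Prkcb, a protein kinase C that acts below phospholipase C, measured 5.84, 6.31 and 6.17 in control and 7.53, 7.42 and 6.77 in RANKL-deficient cells (difference 1.13, SE 0.23, adjusted p = 0.377). Every RANKL-deficient value lay above every control value. The phospholipase genes Plcb3 and Plcb4 had differences of −0.59 and −0.48, each with no overlap.

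Of the 12 measured G protein alpha subunits, 5 differences lay above 0 and 7 below (median −0.04). At an unadjusted p under 0.05, 0 were higher and 2 lower, against 4.25% and 3.9% of all genes. Gnaq, which couples receptors to phospholipase C, had −0.51 (SE 0.16), and Gnal, a relative of Gnas, had −0.62. Gnao1 had −0.37. Gnai2, the inhibitory subunit of lymphocytes, measured 10.52, 10.78 and 10.83 in control and 10.93, 11.05 and 11.10 in RANKL-deficient cells. These groups did not overlap, but the difference of 0.31 did not pass (adjusted p = 0.614). Of the 15 beta and gamma subunits, 3 differences lay above 0 and 12 below (median −0.17). At that p, 0 were higher and 1, Gnb5, was lower (−0.36), against 4.25% and 3.9% of all genes. Gnb2, Gng3 and Gng11 had 0.34, −0.32 and −0.34.

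Of 16 measured genes in the list for adenosine and ATP handling, 7 differences lay above 0 and 9 below (median −0.02). At an unadjusted p under 0.05, 1 was higher (P2rx7) and 1 lower (Dpp4), against 4.25% and 3.9% of all genes. P2rx7, the ATP-gated channel, measured 7.98, 8.10 and 8.16 in control and 9.03, 8.77 and 8.41 in RANKL-deficient cells (difference 0.65, SE 0.18, adjusted p = 0.458). Dpp4 had −0.84 (SE 0.25), Adk, the adenosine kinase, 0.67, and the ectonucleotidase Entpd1 −0.22. Adk measured 5.25, 6.16 and 6.42 in control and 6.62, 6.38 and 6.84 in RANKL-deficient cells, with overlapping groups.

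In the cAMP list (24 measured), 12 differences lay above 0 and 12 below (median 0.05). At an unadjusted p under 0.05, 1 gene was higher and 0 lower, against 4.25% and 3.9% of all genes. The higher gene, Prkar1a, a regulatory subunit of protein kinase A, had 0.85 with overlapping groups. Prkar1a measured 7.96, 8.55 and 9.36 in control and 9.56, 9.21 and 9.64 in RANKL-deficient cells. Prkacb, Pde7a and Adcy8 had 0.42, 0.40 and −0.36. No gene reached an unadjusted p under 0.05 among the receptor kinases and arrestins (9 measured, median −0.02), the genes of lysophospholipid and sphingosine handling (17 measured, median −0.14) or the other metabolite receptors and transporters (13 measured, median −0.13). Their smallest p-values belonged to Grk1 (−0.30), Grk5 (−0.77), Grk3 (0.52) and Arrdc3 (−0.24), to Sphk1 (−0.40), Spns2 (0.30), Plpp1 (−0.42) and Plpp2 (−0.33), and to Fabp5 (0.42), Basp1 (−0.26), Cmklr1 (−0.46) and Slc16a1 (−0.27). Among the list genes named here, Dpp4, Entpd1, Gnal, Gng3, Gng11, Adcy8, Grk1, Plpp2, Cmklr1 and Slc16a1 had means that were not above the olfactory reference.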

How the data were processed

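The authors deposited log2 values for 35556 probe sets on 6 arrays. The submitters' processing notes name RMA and Affymetrix Expression Console, with no version, setting or genome build that could be used here. RNA was amplified from 2 ng, per the labels' protocols, which can widen scatter at low values, and the number of arrays limits the precision. RMA would hide a shift of all genes.

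Of the probe sets, 21789 had 1 symbol in the platform annotation, 1621 several and 12146 none. Only the first were used, with the highest-mean probe set per gene (19938 genes, no filter on low values). Groups came from the titles. limma 3.58.1 in R 4.3.3 (lmFit, eBayes, no replicate block) was run over all genes, two-sided, with Benjamini-Hochberg adjustment. It was checked on simulated data with known changes.

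Same-numbered arrays did not deviate together (correlations −0.02, 0.05 and 0.03), so numbers were not taken as pairs. The receptor genes, lists and tests were chosen with earlier results of these data known. Named were all Ffar, Hcar, P2ry, Lpar and proton-sensing genes, the 10 receptor genes with the smallest p in each direction, the 10 with the highest mean, and, of each pathway list, the 4 genes with the smallest p. Gpr17, Gpr21, Gpr35, Gpr52, Gpr55, Gpr119, Gpr149, Gpr158, Gpr174, Gpr179, the host genes and single markers were named after their values were seen. RefSeq tables (GRCm38.p6) gave neighbours and promoter sequences. No combined score or list test was run. Some items are not reported here.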

Additional observations from a re-analysis of the deposited data

How the results depend on the processing

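No receptor gene passed the adjusted threshold in the 17 alternatives run, and the 572 refitted differences of the 37 named receptor genes held 24 turned signs, all in 11 genes with small differences. The count lower at an unadjusted p under 0.05 (5) was 2 after quantile normalization, 3 after median centring and 1 after cyclic loess. Of all genes, 3.78%, 2.53% and 3.29% were lower in the same fits. The count higher was 2 in each of these fits (2.41%), against 3.72%, 5.47% and 4.21% of all genes. Only 28 receptor genes entered the fit of genes above the median gene. There, 0 were lower and 2 higher (7.14%), against 2.83% and 6.38% of all genes. The count lower without overlap (10) was 4 after cyclic loess, 1 among genes above the median gene and 28 without control arrays 1 and 2, where 22 were higher, against 6.46%, 6.11%, 26.1% and (higher) 25.6% of all genes. The median difference was 0.013, −0.019, 0.023 and −0.0025 after quantile normalization, median centring, cyclic loess and without those arrays. With 1 array left out, the count higher was 1 to 2, the count lower 0 to 9, the non-overlapping counts 4 to 6 and 14 to 28, and the median −0.10 to −0.016. Over all genes, leaving out 1 array gave 3.16% to 6.74% higher and 2.39% to 7.37% lower at an unadjusted p under 0.05. Without overlap, 8.27% to 11.7% of all genes were higher and 13.4% to 23.7% lower in those refits. The cause of these moves was not tested, except that fewer genes or arrays enter some fits.

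With the replicate number as a block, 2 receptor genes were higher at an unadjusted p under 0.05 (2.41%, against 4.68% of all genes). At that p, 4 were lower (4.82%, against 3.32%). Without the block these counts were 2 and 5 (2.41% and 6.02%, against 4.25% and 3.9% of all genes). No receptor gene passed adjustment with or without the block, and over all genes 0 did with it and 1 without. Of the arrays, control 2 and 3 and RANKL-deficient 2 and 3 deviated most like the array of their own number, and the arrays numbered 1 did not.

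Signs turned without 1 array for Tnfsf11 (−0.078 to 0.18), Ffar1 (−0.13 to 0.22), Hcar1 (−0.38 to 0.036), Lpar3 (−0.069 to 0.12), P2ry10 (−0.041 to 0.26), P2ry10b (−0.16 to 0.18), P2ry12 (−0.13 to 0.088), P2ry13 (−0.21 to 0.18), P2ry2 (−0.096 to 0.12), Gpr65 (−0.14 to 0.10) and Gpr108 (−0.27 to 0.017). Without control arrays 1 and 2 they turned for Ffar4 (0.054), Hcar1 (0.31) and P2ry13 (−0.22), with array weights for P2ry10b (−0.0089) and P2ry12 (−0.042), with median centring for Gpr65 (0.040), and for Tnfsf11 with quantile normalization (−0.037) and cyclic loess (−0.052).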
